A study of Mus musculus with 9 samples.

Results

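The translation factors and tRNA synthetases on the arrays comprised 38 genes, out of 4775 named genes and 7170 rows tested. A gene was taken when its current symbol begins with Eif or Eef and a digit, or names an aminoacyl-tRNA synthetase. Eif2s3y was left out, and each gene needed a value on at least 2 arrays of each group. The 38 genes were read from 56 array features, 13 genes had at least 2 features, and all 38 had a value on all 9 arrays. A further 4 genes, Eif4e2, Eif5a2, Lars2 and Wars2, had features with too few values. The rule uses gene names and whether a value is present, not the size or sign of any value.

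Each of the 9 two-colour cDNA arrays compared a castrated C57BL/6 mouse with its matched sham-operated mouse. The groups were old marrow (59 weeks of age), young bone (17 weeks) and young marrow (17 weeks), with 3 mouse pairs each, and every castrated mouse of every group had been operated on at 7 weeks. Marrow was separated from bone in the young mice, and the extraction protocol speaks of pulverized bone for all specimens. Whether the old specimens, labelled bone marrow, also held bone is not given in the sources used here. The castrated mouse was labelled with Cy5 on 6 arrays and with Cy3 on 3 arrays, 1 in each group (old marrow replicate 2, young bone replicate 3 and young marrow replicate 2, called swapped arrays here). Sham-operated mice were the only controls, and the files hold only ratios, so that marker levels of the labelled tissues could not be checked.

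All values are deposited log ratios, read as log2 of castrated over sham. That direction is likely and not settled: each array's description sets the castrated against the sham-operated mouse, but the sources used here do not state the sign, and the other reading, Cy5 over Cy3, turns the swapped arrays round. On the 6 arrays that were not swapped both readings are the same. The log base is also not given. In such bulk specimens a change in the share of a cell type and a change in RNA per cell cannot be told apart.

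Translation begins when the cap-binding factor eIF4E and its partners bring the small ribosomal subunit, carrying eIF3 and the eIF2 complex with initiator tRNA, to the messenger RNA. eIF2B recharges eIF2 with GTP, and stress kinases that phosphorylate eIF2 slow that step. eEF1A, encoded by Eef1a1, then delivers aminoacyl-tRNA to the ribosome and eEF2 moves the ribosome along, while the synthetases load each tRNA with its amino acid. In marrow, dividing blood cell precursors and antibody-forming cells are known for their high demand on this machinery.

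Many vertebrate mRNAs for translation proteins begin with a run of pyrimidines (a terminal oligopyrimidine tract), through which their translation follows mTOR signalling. The promoter table held 28 of the 38 genes with 32 promoters. A run of 7 or more pyrimidines that starts with C and begins within 15 bases of the annotated start was found on the sense strand in 8 of the 32 promoters (25%), beside 15.95% of all 32851 promoters. The run of Eif4e ends before its annotated start, and those of Eef1a1 and Eif3f begin before theirs. Whether a counted run is transcribed or begins the mRNA was not tested. The 5 windows shown here, from RefSeq on GRCm38.p6, run from 20 bases before to 30 bases after the annotated start, belong to genes whose array values are given below, and have the run in capitals:
Eef1a1, chr9:78481695-78481744, minus strand: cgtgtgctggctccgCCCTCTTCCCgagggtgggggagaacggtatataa
Eef2, chr10:81176611-81176660, plus strand: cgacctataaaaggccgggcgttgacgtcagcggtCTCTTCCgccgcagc
Eif3f, chr7:108934395-108934444, plus strand: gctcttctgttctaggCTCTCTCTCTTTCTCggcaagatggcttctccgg
Eif3l, chr15:79075203-79075252, plus strand: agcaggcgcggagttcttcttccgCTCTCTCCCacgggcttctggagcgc
Eif4e, chr3:138527248-138527297, plus strand: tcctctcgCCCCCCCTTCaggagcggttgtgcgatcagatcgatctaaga

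A second motif, TGATGNAA on either strand, is the kind of element that the stress factor ATF4 and its partners bind in amino acid response genes. It was in 3 of the 32 promoters (9.375%), against 3.969% of all promoters, and the genes were Eef2k, Gars and Iars. The windows of the synthetases Gars and Iars are shown because their ratios are given below, with the motif, read on the other strand, in capitals:
Gars, chr6:55037960-55037989, plus strand: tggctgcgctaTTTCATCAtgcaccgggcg
Iars, chr13:49682126-49682155, plus strand: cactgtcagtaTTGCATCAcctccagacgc
The E-box CACGTG, bound by Myc and related factors, was in 5 of the 32 promoters (15.62%), against 7.15% of all promoters. A letter match describes the window and is not a binding site.

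The whole series gave the scale for these genes. The SD over all rows was 0.19 to 0.29 on 8 arrays and 0.46 on old marrow replicate 1, whose median over all rows was -0.11. On the other 8 arrays that median lay within 0.02 of 0. The 9 measured of 16 listed B lymphocyte lineage genes had array medians of 0.585 to 1.11, and all 9 passed the test as higher in the average over the groups, where their median was 0.92 as deposited and 0.03 read as Cy5 over Cy3. All 7 measured of 14 granulocyte genes passed as lower in the average, with array medians of -0.65 to -0.25, and their average median was -0.55 as deposited and 0.015 read as Cy5 over Cy3. The 7 measured of 12 skeletal muscle genes had fitted medians of 0.41 in old marrow, -0.66 in young bone and -0.06 in young marrow, with 0 past the threshold. These medians were 0.39, -0.16 and -0.04 read as Cy5 over Cy3. The 8 bone matrix genes of 12 had a median of 0.29 in the average (0.08 read as Cy5 over Cy3), with 0 past the threshold. The 4 erythroid genes of 12 had a median of 0.01 (-0.24 read as Cy5 over Cy3), also with 0 past the threshold. The part of these cell types in the values below was not tested.

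None of the 38 genes passed an adjusted p of 0.05 in any of 7 comparisons (limma, Benjamini-Hochberg over all 7170 rows). The rows that passed made up 0.851% in old marrow, 0.321% in young bone, 0.739% in young marrow and 3.91% in the average over the 3 groups. They made up 0.0139% (1 row) for old marrow minus young bone, and 0% for old marrow minus young marrow and for young bone minus young marrow. In the average 140 rows were called higher and 140 lower. At such shares few of 38 genes would pass, so the lack of calls does not set these genes apart. Young marrow was the group in which most members stood above 0, 31 of 38, beside 48.7% of all rows. Read as Cy5 over Cy3, 16 of 38 stood above 0 there, beside 48.2% of all rows.

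At an unadjusted p under 0.05 the members numbered 4 in old marrow, all with a negative ratio, where 18.5% of all rows reached that level. In young bone they numbered 5, 1 positive and 4 negative, beside 8.52% of all rows. In young marrow they numbered 9, all positive, beside 10.3% of all rows. In the average they numbered 3, beside 16% of all rows. The members' shares were 10.5% in old marrow, 13.2% in young bone, 23.7% in young marrow and 7.89% in the average, below the background in old marrow and in the average and above it in both young groups. On the 6 unswapped arrays alone 1 member reached that level in young marrow (2.63%, beside 407 of 7170 rows). Young bone then had 9, 8 of them negative (23.7%, beside 585 rows). Old marrow and the average had 7 each, all negative (18.4% each, beside 1037 and 1140 rows). The median of the members in young marrow was 0.05 in that fit.

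Read as Cy5 over Cy3, 0 of 38 members and 0% of rows passed in each of the 7 comparisons. At an unadjusted p under 0.05 that reading gave 1 member in old marrow (2.37% of rows), 3 in young bone (6.56%), 0 in young marrow (0.781%) and 3 in the average (4.7%). For the differences it gave 1 for old marrow minus young bone (3.85% of rows), 0 for old marrow minus young marrow (0.697%) and 1 for young bone minus young marrow (1.48%). The median of the 38 fitted ratios in young marrow was 0.12 as deposited and -0.01 read as Cy5 over Cy3.

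The 95% interval of a group's ratio reached 0.18 to 0.30 on either side, and that of the average 0.11 to 0.18. The whole interval lay within 0.5 of 0, a 1.41-fold change, for 36 members in old marrow, 38 in young bone, 36 in young marrow and 38 in the average. Of all rows, 72.8%, 85.7%, 78.3% and 96.5% did so in the same order. The number of arrays limits this precision, and signal over background was not analysed here.

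The medians of the 38 genes were -0.14, -0.03 and -0.04 on the old marrow arrays, -0.12, -0.145 and 0.07 on the young bone arrays, and 0.06, 0.19 and 0.02 on the young marrow arrays. In young bone the 2 arrays below 0 were those with castrated RNA in Cy5, and the swapped array was above 0. In young marrow the swapped array was the highest. The common dye term of the fit was below 0 for 31 of the 38 genes (median -0.05, 0 past the threshold). Over all rows that term was above 0 for 49.3%, with a median of -0.002. Its unadjusted p in limma was under 0.05 for 5 members (13.2%), all below 0, beside 463 of 7170 rows.

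**Figure D1:**
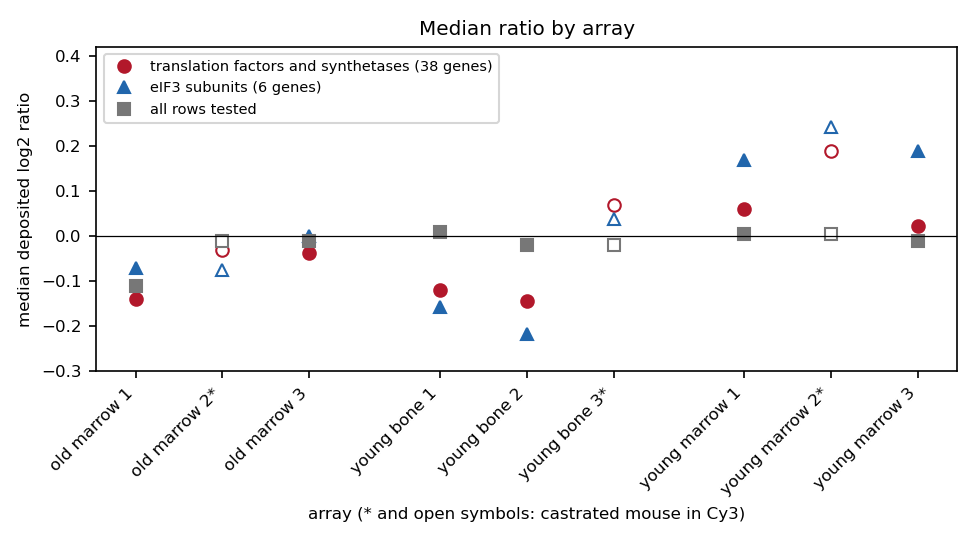
Median deposited log2 ratio (y axis) on each of the 9 arrays (x axis) for the 38 translation genes (circles), the 6 eIF3 subunits (triangles) and all rows tested (squares); open symbols are swapped arrays. The eIF3 medians lie above the other symbols on each young marrow array, at 0.17 to 0.24.

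**Figure D2:**
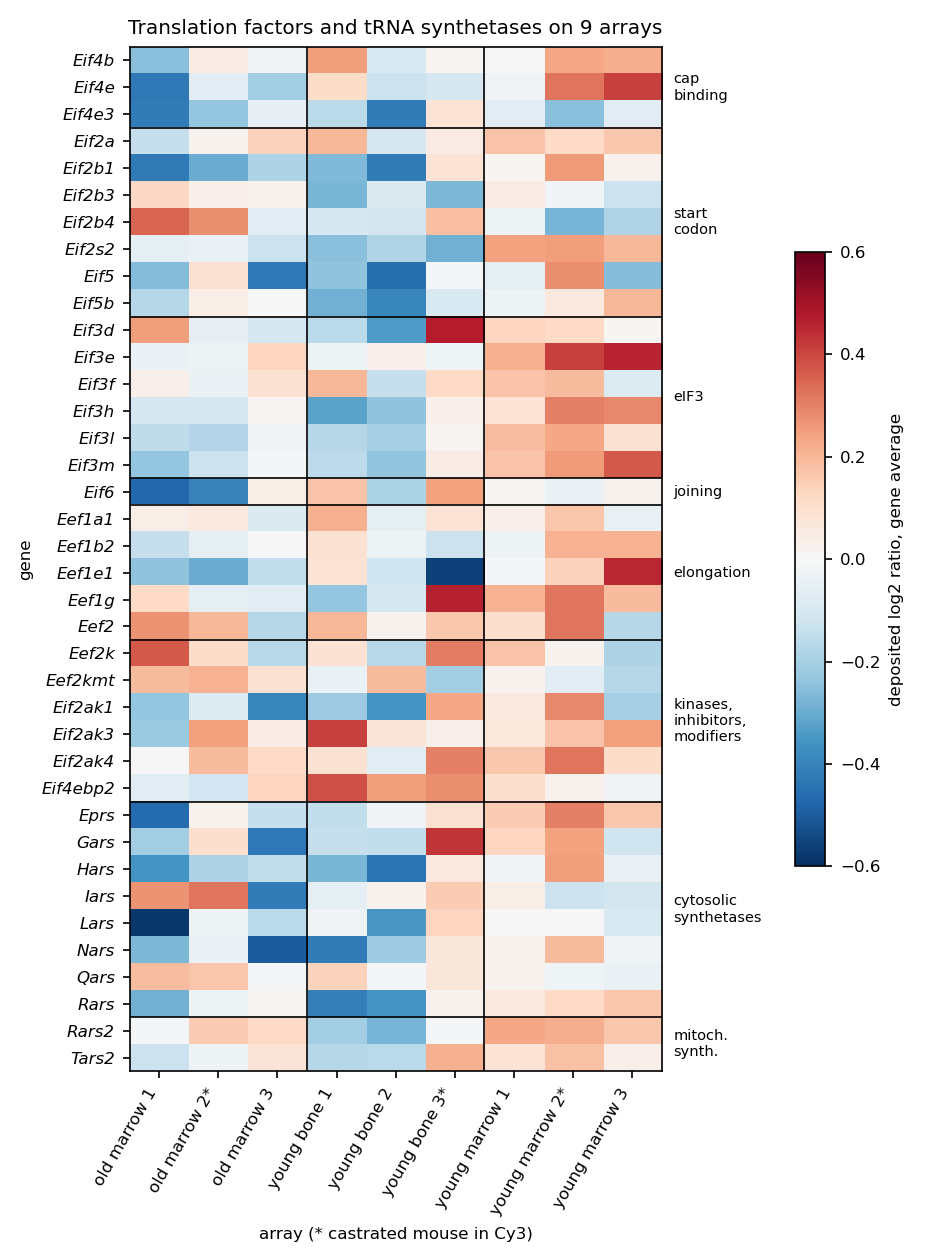
Deposited log2 ratio of each of the 38 genes (rows, by role) on each of the 9 arrays (columns; stars mark swapped arrays), from blue (-0.6 or lower) to red (0.6 or higher). Young marrow holds mostly red cells in the eIF3 block, and no gene has one colour on all 9 arrays.

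Among the cap-binding factors, none of 3 genes passed in any comparison. Eif4e, the cap-binding protein itself, had ratios of -0.43, -0.07 and -0.21 in old marrow, 0.11, -0.13 and -0.10 in young bone, and -0.02, 0.32 and 0.41 in young marrow. Old marrow lay below 0 throughout and did not overlap young marrow, yet the difference of -0.47 (SE 0.15) had an adjusted p of 0.34. Eif4e3, a cap-binding relative, had -0.42, -0.23 and -0.05 in old marrow, -0.16, -0.42 and 0.08 in young bone, and -0.07, -0.25 and -0.07 in young marrow. It was below 0 on 8 of 9 arrays, with an average of -0.17 (SE 0.07, adjusted p 0.26). Eif4b, a helper of the RNA helicase, averaged 0.06 (SE 0.06, adjusted p 0.76), the highest of the class.

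None of the 7 genes classed under start codon selection passed in any comparison. The class was set by symbol and also takes in the eIF2B subunits and Eif5b. Eif2s2, the beta subunit of eIF2, had ratios of -0.06, -0.04 and -0.13 in old marrow, -0.25, -0.18 and -0.29 in young bone, and 0.24, 0.25 and 0.20 in young marrow. As deposited the 3 groups did not overlap, and the SD within a group was 0.06 in young bone and 0.03 in young marrow. Young bone minus young marrow was -0.47 (95% interval -0.72 to -0.22, unadjusted p 0.0016), the smallest p of any member in any comparison as deposited, and its adjusted p over all rows was 0.93. That difference was -0.11 (SE 0.19, unadjusted p 0.57 in limma) read as Cy5 over Cy3. For old marrow minus young marrow the value was -0.31 (SE 0.11, adjusted p 0.34).

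Subunits of eIF2B, the exchange factor of eIF2, had different signs from each other. Eif2b1 had ratios of -0.43, -0.30 and -0.19 in old marrow, -0.27, -0.42 and 0.08 in young bone, and 0.01, 0.26 and 0.03 in young marrow. All old marrow arrays were below 0 and all young marrow arrays above it. The fitted old marrow ratio was -0.27 (SE 0.10, adjusted p 0.23), and the average over the groups was the lowest of the class at -0.10 (SE 0.06, adjusted p 0.48). Eif2b4 had 0.35, 0.28 and -0.07 in old marrow, -0.10, -0.11 and 0.18 in young bone, and -0.03, -0.28 and -0.18 in young marrow. It had the highest member ratio in old marrow, 0.20 (SE 0.11, adjusted p 0.33), and the lowest in young marrow, -0.15 (SE 0.11, adjusted p 0.68).

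Eif2b3 had 0.13, 0.03 and 0.02 in old marrow, against -0.28, -0.09 and -0.27 in young bone. The 2 groups had opposite signs, with a difference of 0.27 (SE 0.12, adjusted p 0.68). Its 2 features correlated at -0.26 over the 9 arrays, so that the gene average hides a disagreement between them. Eif5b, a GTPase of subunit joining, was at -0.29, -0.39 and -0.09 in young bone, with a fitted ratio of -0.24 (SE 0.09, adjusted p 0.46). Eif5, the GTPase activator of eIF2, had -0.26, 0.09 and -0.43 in old marrow, -0.24, -0.45 and -0.01 in young bone, and -0.06, 0.28 and -0.26 in young marrow. All 6 unswapped arrays were below 0 and the swapped array was the highest in each group, and over those 6 arrays alone the average was -0.28 (SE 0.07, adjusted p 0.12). Eif2a, an alternative carrier of initiator tRNA, had the highest average of the class, 0.07 (SE 0.06, adjusted p 0.67).

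The 6 measured subunits of eIF3, the scaffold that holds the small ribosomal subunit ready for mRNA, all had fitted ratios above 0 in young marrow, with a median of 0.21. In old marrow 3 of the 6 were above 0 (median -0.01) and in young bone 2 of the 6 (median -0.06). Eif3e had ratios of -0.04, -0.03 and 0.13 in old marrow, -0.03, 0.03 and -0.03 in young bone, and 0.22, 0.41 and 0.46 in young marrow. The young marrow arrays lay above all others. The fitted young marrow ratio of Eif3e was 0.36 (95% interval 0.16 to 0.55, adjusted p 0.12), the highest of the 38 genes in that group.

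Eif3m had -0.23, -0.13 and -0.01 in old marrow, -0.16, -0.24 and 0.05 in young bone, and 0.17, 0.26 and 0.37 in young marrow. Its young marrow ratio was 0.28 (SE 0.09, adjusted p 0.31) and old marrow minus young marrow was -0.39 (SE 0.13, adjusted p 0.34). Eif3h had -0.10, -0.10 and 0.01 in old marrow, -0.32, -0.24 and 0.03 in young bone, and 0.08, 0.30 and 0.29 in young marrow. Here too the young marrow arrays lay above all the others. Young bone minus young marrow was -0.40 for Eif3h (SE 0.13, adjusted p 0.93).

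Eif3l, one of the genes with a pyrimidine run shown above, had -0.15, -0.18 and -0.02 in old marrow, -0.17, -0.20 and 0.02 in young bone, and 0.18, 0.23 and 0.09 in young marrow. Old marrow and young marrow had opposite signs, and the average over the groups was close to 0 (-0.01, SE 0.05, adjusted p 0.95). Eif3f, whose run of pyrimidines is the longest of those shown, had 0.03, -0.04 and 0.09 in old marrow, 0.20, -0.14 and 0.12 in young bone, and 0.17, 0.19 and -0.08 in young marrow. Its groups overlapped. Eif3d and Eif3f had average ratios of 0.07 each, and Eif3d spread widely in young bone, at -0.16, -0.34 and 0.47. Read as Cy5 over Cy3, the median of the 6 subunits in young marrow was 0.02.

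**Figure D3:**
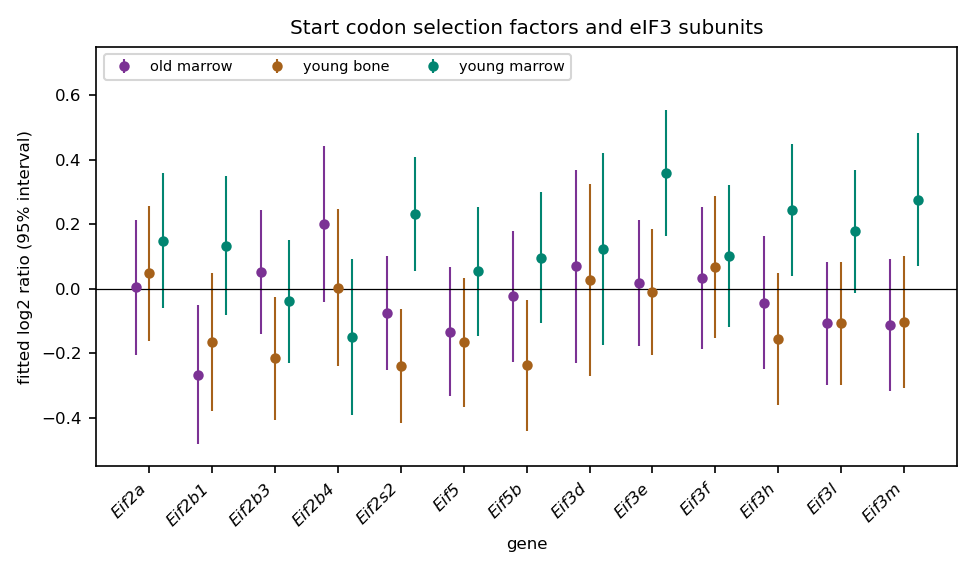
Fitted log2 ratio of castrated over sham (y axis; bars, 95% interval) of the 7 start codon selection factors and 6 eIF3 subunits (x axis) in old marrow, young bone and young marrow (3 arrays each). Eif3e in young marrow has the highest value, 0.36, and intervals of the groups overlap for most genes.

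Eif6 keeps the large ribosomal subunit from joining too early and is the only member of its class, which was set by symbol. Its ratios were -0.47, -0.40 and 0.04 in old marrow, 0.17, -0.19 and 0.24 in young bone, and 0.01, -0.04 and 0.02 in young marrow. The old marrow value of -0.28 (SE 0.12, adjusted p 0.27) was the lowest of the 38 genes there and rested on replicates 1 and 2. Without old marrow replicate 3, Eif6 at -0.44 (adjusted p 0.031) and Eif2b1 at -0.36 (adjusted p 0.042) passed in old marrow, in a fit where 16% of all rows passed. Eif2b1 then also passed for old marrow minus young marrow, at -0.50 (adjusted p 0.041), with 10.6% of rows.

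The 5 elongation genes included the marker Eef1a1. Eef1a1 averaged over its features had fitted ratios of 0.02 in old marrow, 0.09 in young bone and 0.06 in young marrow (SE 0.09 each), with adjusted p of 0.92, 0.95 and 0.79. Its average over the groups was 0.06, with a 95% interval of -0.06 to 0.18. The 95% intervals were -0.18 to 0.22 in old marrow, -0.10 to 0.29 in young bone and -0.13 to 0.26 in young marrow. These averages include the feature AW547011, which stood apart from the others, as described below.

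The 5 features of Eef1a1 are named here by the accession of the clone printed on the array. BU604295 had 0.19, 0.18 and 0.03 in old marrow, 0.28, -0.09 and 0.26 in young bone, and 0.07, 0.17 and -0.08 in young marrow. AK076696 had 0.04, 0.07 and -0.12 in old marrow, -0.08, -0.31 and 0.22 in young bone, and -0.04, 0.19 and -0.21 in young marrow. AK081725 had 0.08, -0.07 and -0.14 in old marrow, 0.03, -0.12 and 0.14 in young bone, and 0.10, 0.14 and 0.09 in young marrow. Pearson correlations between pairs of these 3 features were 0.41 to 0.79, a description over 9 arrays that share the 2 dyes.

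BU515535 had 0.07, -0.32 and 0.13 in old marrow, 0.03, -0.21 and 0.23 in young bone, and 0.16, 0.03 and -0.05 in young marrow. Its correlations with those 3 features were 0.30 to 0.53. AW547011 stood apart, with -0.18, 0.44 and -0.34 in old marrow, 0.80, 0.43 and -0.44 in young bone, and -0.14, 0.30 and 0.02 in young marrow. In old marrow and in young bone its swapped array had the sign opposite to the group's other 2 arrays, and its correlations with the other features were -0.66 to 0.10. Whether AW547011 reports Eef1a1 was not tested. None of the 5 features passed in any comparison over all features. In young bone the fitted values ran from -0.01 (AK076696) to 0.26 (AW547011, SE 0.22, adjusted p 0.90).

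**Figure D4:**
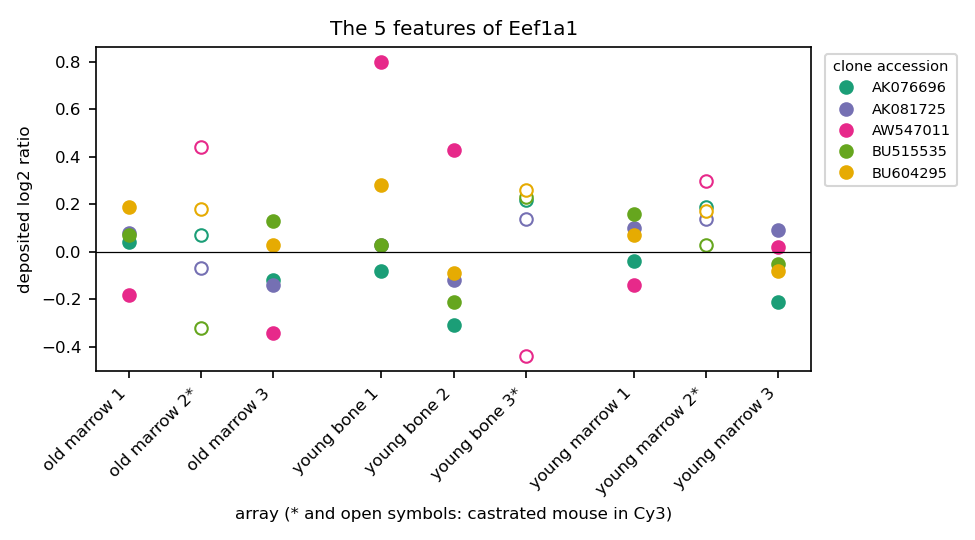
Deposited log2 ratio (y axis) of the 5 features of Eef1a1, named by clone accession, on each of the 9 arrays (x axis); open symbols are swapped arrays. The feature AW547011 reaches 0.80 and -0.44 within young bone, where the other 4 lie between -0.31 and 0.28.

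Eef2, the translocase and another gene with a pyrimidine run, had 0.27, 0.20 and -0.17 in old marrow, 0.20, 0.02 and 0.16 in young bone, and 0.10, 0.32 and -0.17 in young marrow. It had the highest average of the class, 0.13 (SE 0.07, adjusted p 0.38). Eef1e1, which sits in the multi-synthetase complex, had the lowest, -0.12 (SE 0.07, adjusted p 0.48). Its ratios were -0.24, -0.30 and -0.15 in old marrow, 0.08, -0.12 and -0.56 in young bone, and -0.01, 0.14 and 0.45 in young marrow. Eef1e1 was below 0 on all old marrow arrays and spread widely in both young groups. Eef1g, a subunit of the exchange factor for eEF1A, was above 0 in young marrow at 0.21, 0.32 and 0.19, with a fitted ratio of 0.28 (SE 0.11, adjusted p 0.43).

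Of the 6 kinases, inhibitors and modifiers, Eif2ak4 had the highest average of all 38 genes. This kinase, known as GCN2, senses uncharged tRNA and phosphorylates eIF2. Eif2ak4 had 0.00, 0.19 and 0.12 in old marrow, 0.09, -0.07 and 0.30 in young bone, and 0.16, 0.32 and 0.11 in young marrow. It was above 0 on 7 of 9 arrays, and the average was 0.17 (95% interval 0.06 to 0.28, adjusted p 0.10). The average has the opposite sign, -0.10, when the values are read as Cy5 over Cy3.

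Eif2ak3, the endoplasmic reticulum stress kinase PERK, was above 0 on 8 of 9 arrays, with -0.22, 0.25 and 0.05 in old marrow, 0.41, 0.08 and 0.03 in young bone, and 0.06, 0.17 and 0.25 in young marrow. Its young bone ratio was 0.18 (SE 0.11, adjusted p 0.80). Eif2ak1, the heme-regulated kinase prominent in erythroid cells, had the lowest average of the class, -0.04 (SE 0.06, adjusted p 0.83).

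Eif4ebp2, a repressor that binds eIF4E until mTOR signalling releases it, had -0.07, -0.12 and 0.13 in old marrow, 0.39, 0.25 and 0.28 in young bone, and 0.10, 0.03 and -0.02 in young marrow. The young bone arrays lay above all others. The young bone ratio of 0.29 (95% interval 0.10 to 0.48, adjusted p 0.28) was the highest of the 38 genes there. Old marrow minus young bone was -0.32 (SE 0.12, adjusted p 0.68). Eef2kmt, a methyltransferase that modifies eEF2, was above 0 in old marrow (0.15, SE 0.10, adjusted p 0.38) and below it in young marrow (-0.09, SE 0.10, adjusted p 0.75).

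The 8 cytosolic synthetases had fitted medians of -0.13 in old marrow, -0.02 in young bone and 0.11 in young marrow, beside -0.04, -0.01 and 0.00 over all rows. The medians of the 8 were -0.19, -0.17 and -0.01 read as Cy5 over Cy3. As deposited, in old marrow 6 of the 8 were below 0, and in young marrow 6 of the 8 were above it. Eprs, which charges tRNA with glutamate and with proline, had -0.46, 0.02 and -0.14 in old marrow, -0.15, -0.02 and 0.09 in young bone, and 0.15, 0.30 and 0.16 in young marrow. Old and young marrow did not overlap, and the difference was -0.40 (SE 0.13, adjusted p 0.34).

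Hars, for histidine, had the lowest average of the class, -0.09 (SE 0.06, adjusted p 0.54), and Qars, for glutamine, the highest, 0.06 (SE 0.05, adjusted p 0.68). The 2 features of Qars had the same sign on 1 of 9 arrays and a correlation of -0.79, so that its average near 0 joins opposed values. Gars, for glycine, had -0.21, 0.10 and -0.43 in old marrow, -0.14, -0.15 and 0.43 in young bone, and 0.13, 0.24 and -0.12 in young marrow. In each group its swapped array was the highest. Iars, for isoleucine, had 0.27, 0.32 and -0.42 in old marrow, -0.06, 0.02 and 0.15 in young bone, and 0.04, -0.13 and -0.11 in young marrow.

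The mitochondrial synthetase for arginine, Rars2, had -0.01, 0.15 and 0.12 in old marrow, -0.21, -0.28 and -0.01 in young bone, and 0.23, 0.22 and 0.16 in young marrow. Young bone and young marrow had opposite signs on all arrays, and young bone minus young marrow was -0.37 (95% interval -0.63 to -0.11, adjusted p 0.93). Old marrow minus young bone was 0.25 (SE 0.11, adjusted p 0.68), and the average was 0.06 (SE 0.05, adjusted p 0.67). Rars, the cytosolic enzyme for the same amino acid, also did not overlap between the young groups, with -0.41, -0.36 and 0.02 in young bone and 0.06, 0.12 and 0.16 in young marrow. Tars2, for threonine, averaged 0.04 (SE 0.06, adjusted p 0.84). The averages of Eef1b2, Eef2k, Eif5, Lars and Nars ran from -0.083 (Lars) to 0.082 (Eef2k).

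Signs of the deposited values over replicates were set beside the 6147 rows with a value on all 9 arrays. No member had one sign on all 9 arrays, as 4.29% of the rows had. In old marrow 2 members were above 0 on every array (17.4% of rows) and 11 were below (24.2% of rows). In young bone 3 were above (10.2% of rows) and 5 below (14% of rows). In young marrow 15 were above (20.4% of rows), among them Eif3d, Eif3e, Eif3h, Eif3l and Eif3m, and 2, Eif2b4 and Eif4e3, were below (17.7% of rows).

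These counts depended on the reading, since each group holds 1 swapped array. Read as Cy5 over Cy3, young marrow had 1 member above 0 on every array, Eif6 (5.35% of rows), and 2 below, Eif5 and Hars (7.82% of rows). In old marrow 1 member, Eif3f, was then above (4.31% of rows) and 4 were below (9.73% of rows). In young bone 0 were then above (17.7% of rows) and 16 were below (15.9% of rows), among them Eif3d, Eif3h, Eif3l and Eif3m. Again no member had one sign on all 9 arrays (0.569% of rows).

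Differences between groups set the ratios of old against young marrow and of bone against marrow. Old marrow was taken 52 weeks after castration and both young groups 10 weeks after it, so that age and time since castration cannot be told apart. At an unadjusted p under 0.05 there were 12 members for old marrow minus young marrow, 11 of them negative, beside 14.7% of rows. There were 11 for young bone minus young marrow, 10 of them negative, beside 4.67% of rows, and 2 for old marrow minus young bone, beside 6.82% of rows. Both larger counts come from comparisons that share the young marrow arrays. On the 6 unswapped arrays alone these 2 counts were 2 and 6, beside 350 and 237 of 7170 rows. The median difference of the members was -0.19 for old marrow minus young marrow and -0.14 for young bone minus young marrow, against -0.06 and 0.00 over all rows. These member medians were -0.035 and -0.11 read as Cy5 over Cy3.

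Same-numbered arrays of old and young marrow deviated together from their group means. In a fit of these 6 arrays alone with the replicate number as a block, added after seeing the data, 0 members and 0 rows passed for old marrow minus young marrow. At an unadjusted p under 0.05 that fit gave 14 members, 13 of them negative, beside 25% of rows.

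Arrays of old and young marrow did not overlap for 15 members, 14 of them lower in old marrow, where 21.4% of rows did not overlap. For young bone and young marrow it was 10 members, 9 of them lower in young bone (11% of rows), and for old marrow and young bone 3 members (7.99% of rows). Wholly opposite signs were found for 4 members between old and young marrow (5.58% of rows), 2 between young bone and young marrow (2.8%) and 1 between old marrow and young bone (1.68%). Read as Cy5 over Cy3, opposite signs were found for 0 members in each of these pairs, beside 0.456%, 0.781% and 2.05% of rows. The arrays then did not overlap for 0 members between old and young marrow (2.65% of rows), 2 between young bone and young marrow (6.87%) and 3 between old marrow and young bone (7.27%). As deposited, the 95% intervals of the differences reached 0.25 to 0.41 on either side. For old marrow minus young marrow 17 members (44.7%) had the whole interval within 0.5 of 0, beside 45.1% of all rows. For young bone minus young marrow it was 20 members (52.6%), beside 57.6% of all rows. For old marrow minus young bone it was 29 members (76.3%), beside 54.6% of all rows.

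The young marrow calls changed with the weight given to each array. With limma's array quality weights 10 members passed in young marrow, all with positive ratios (Eef1g, Eef2, Eif2ak4, Eif2s2, Eif3e, Eif3h, Eif3l, Eif3m, Eprs and Rars2), in a fit where 18.1% of all rows passed. In the same fit Eif2ak4 (0.17) and Eif4e3 (-0.19) passed in the average, where 10.7% of rows passed.

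Other genes of translation gave no calls in any comparison. Among 8 measured of 24 genes of mRNA scaffolding and mTOR control, the median average ratio was 0.04, from -0.06 for Rheb, the GTPase that activates mTOR, to 0.14 for Paip2, an inhibitor of poly(A)-binding protein (adjusted p 0.76 and 0.29). For 8 of 17 genes of termination and ribosome recycling the median was -0.05, from -0.10 for Hbs1l, a rescue factor for stalled ribosomes, to 0.03 for Abce1, which splits ribosomes. For 4 of 17 partners of the synthetases it was 0.06, with Farsb, a phenylalanine synthetase subunit, at 0.13 and Trnt1, which adds the tRNA tail, at 0.00. For 4 of 11 mitochondrial translation factors it was -0.02, between -0.10 for Gfm1 and 0.08 for Tsfm, both elongation factors. These 4 medians of the average lay between -0.05 and 0.06. In old marrow the medians of the same lists, in that order, were 0.04, -0.08, 0.22 and 0.01, beside -0.04 over all rows. Read as Cy5 over Cy3 they were -0.01, -0.07, 0.08 and -0.05 there.

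Genes induced by amino acid shortage and the integrated stress response, downstream of Eif2ak3 and Eif2ak4, were measured for 11 of 20. Their median ratio was -0.24 in old marrow, with 11 of 11 below 0, against 0.08 in young bone and 0.13 in young marrow, and 0 passed the threshold in any group. Of all rows 42.2% were above 0 in old marrow. In old marrow 3 of the 11 had an unadjusted p under 0.05, beside 18.5% of rows. Under the Cy5 over Cy3 reading the medians of the 11 were -0.10, -0.14 and -0.11 in the same order of groups. In the average Psat1, of serine synthesis, was the highest at 0.17 (SE 0.06, adjusted p 0.22) and Sesn2, a leucine sensor, the lowest at -0.37 (SE 0.14, adjusted p 0.22).

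Several genes were measured more than once, which shows how far a single feature can be read. For 6 pairs of features with the same clone accession the median absolute difference over the arrays was 0.02 to 0.06, with correlations of 0.856 to 0.995. For 20 pairs with different accessions it was 0.02 to 0.47, with correlations of -0.79 to 0.93. Features of Eif3h, Eif3l and Eif3m with different accessions correlated at 0.69 to 0.93. Those of Eef2k, Eif2b3, Qars and, for AW547011, Eef1a1 included negative correlations.

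**Figure D5:**
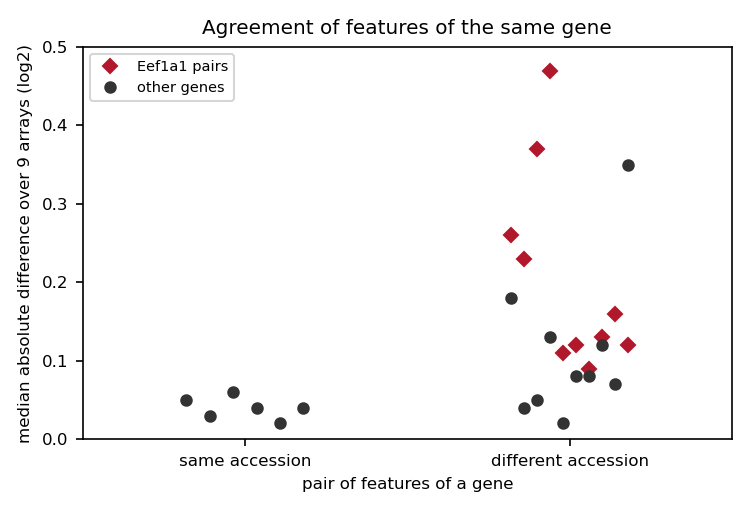
Median absolute difference over 9 arrays (log2, y axis) between 2 features of the same gene, for 6 pairs with the same clone accession and 20 pairs with different accessions (x axis; each point is a pair, diamonds are pairs of Eef1a1 features). Pairs with the same accession lie at or below 0.06, and pairs with different accessions reach 0.47.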

How the data were processed

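The deposited series table holds 1 log ratio per feature and array, 11552 features with 8290 to 10995 values per array; the deposited values were read as log2, while log base, direction, background treatment and normalization are not given in the sources used here. The probe annotation gave 8050 features 1 gene, 672 several and 2830 none; 7880 of the 8050 were matched to current symbols by gene ID. Features of a gene were averaged, and features without a single gene stayed as rows of their own. Rows needed values on 2 arrays of each group and 1 swapped array.

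limma 3.58.1 (R 4.3.3; lmFit, eBayes) was fitted to all 9 arrays with a term per group and a common dye term, leaving 5 residual degrees of freedom, with Benjamini-Hochberg adjustment across all rows (threshold 0.05). The fit was tested on simulated data for the average alone, with independent arrays and the same change in all groups. That simulation did not cover single groups, differences between groups or arrays that deviate together. Replicates are distinct mouse pairs, per the labels. Members and lists were chosen with earlier results of these data known. Genes named are, by rule, those past the threshold, those with one sign on all arrays, the highest and lowest average of each role class and list, the 3 highest and 3 lowest of each group, the 3 smallest p of each difference, and the Eef1a1 features; others named were chosen after their values were seen. Alternatives were the other reading, the 6 unswapped arrays, no dye term, centring, equal SD, array weights, complete rows, single features, a replicate block, leaving out each array, and, chosen after seeing the data, Eef1a1 without AW547011 and a replicate block over the marrow arrays. In deviations from group means, same-numbered arrays of old and young marrow correlated at 0.28 to 0.61 and other pairs of these arrays at -0.53 to 0.15. That pairing comes from the data, and same-numbered marrow arrays also share the dye orientation. Gene coordinates are not used here; promoters come from RefSeq.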

Additional observations from a re-analysis of the deposited data

Results flagged for a closer look

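As deposited, for 7 results every array of one group lay above 0 and every array of the other group below 0. For old marrow minus young bone this was Eif2b3 at 0.27 (limma, adjusted p 0.68). Neither of the 2 Eif2b3 features showed these opposite signs alone, and they correlated at -0.26. For old marrow minus young marrow it was Eif2b1 at -0.40, Eif2s2 at -0.31, Eif3l at -0.28 and Eif3m at -0.39 (adjusted p 0.34 each). These signs are of gene averages. A feature of Eif2b1 was at -0.02 on young marrow replicate 1. On old marrow replicate 3 a feature of Eif3l was at 0.01 and a feature of Eif3m at 0.05. The other features of these 3 genes had the opposite signs alone. For young bone minus young marrow it was Eif2s2 at -0.47 and Rars2 at -0.37 (adjusted p 0.93 each). The differences were tested with limma over all rows and did not pass. Read as Cy5 over Cy3, which turns 1 array of each group round, 0 members had opposite signs in any of the 3 pairs of groups. Groups of 3 arrays are too small for a test of single outlying arrays.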

How the results depend on the processing

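The count of members past the threshold was 0 in the 7 comparisons and stayed 0 under every alternative for young bone, young bone minus young marrow and old marrow minus young bone. It was 1 in young marrow with arrays scaled to the same SD (Eif3e, 0.41, adjusted p 0.038) and, with array weights, 10 in young marrow and 2 in the average. Leaving out each array gave 0 to 2 members in old marrow and 0 to 1 for old marrow minus young marrow, both highest without old marrow replicate 3, and 0 elsewhere. With the replicate block the count was 0 in each comparison and no named value changed sign, and it was 0 with the block over the marrow arrays alone. Deviations of same-numbered arrays correlated at 0.28 to 0.61 between old and young marrow, at -0.11 to 0.41 between old marrow and young bone and at -0.37 to -0.06 between young bone and young marrow. Rows past the threshold over all alternatives ran from 0 to 64 in young bone (23 as reported), 0 to 1300 in young marrow (53), 0 to 1150 in old marrow (61) and 0 to 764 in the average (280), and from 0 to 3, 0 to 763 and 0 to 28 for young bone minus young marrow (0), old marrow minus young marrow (0) and old marrow minus young bone (1).

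Of the 42 named values, 16 changed sign when read as Cy5 over Cy3. In the average these were Eif4b -0.039, Qars -0.011, Eef2 -0.093, Eef1e1 0.12, Eif2ak4 -0.10, Rars2 -0.059 and Tars2 -0.083; in young bone Eef2 -0.025 and Eef1e1 0.21; in young marrow Eef1g -0.017, Eif2b4 0.017 and Eif4e3 0.092; and in old marrow Eif2b4 -0.0061, Eif2ak4 -0.080, Eif6 0.013 and Eef1e1 0.0097. On the 6 unswapped arrays alone the average was 0.0017 for Eef1e1 and -0.046 for Tars2. The average of Eif3l was 0.0040 after centring and 4.65e-04 at equal SD. Leaving out each array moved it between -0.044 and 0.028, the average of Tars2 between -0.016 and 0.079, and in young marrow Eif2b4 between -0.23 and 0.0013 and Eif4e3 between -0.16 and 0.024. Without AW547011, Eef1a1 was at -0.016 for young bone minus young marrow, against 0.028 with it. The cause was not tested.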
